A study of Mus musculus with 6 samples.

Results

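Non-collagen extracellular matrix genes were examined in whole bone marrow of mice given NOX-A12 and of untreated mice. The 32 genes encode laminins, nidogens, perlecan, fibronectin, small leucine-rich proteoglycans, elastic fibre proteins, cross-linking enzymes, matricellular proteins and 2 matrix metalloproteinases. Each gene was represented by the probe set with the highest mean over the 6 arrays among those that name that gene alone, and 29 of the 32 had one, out of 18193 genes measured in this way. Fbn1 and Efemp2 have no probe set listed for them in the annotation used here, Loxl2 shares its 2 probe sets with another gene, and these 3 were not analysed here.

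Both groups were SCID/Bg mice, an immunodeficient strain without mature T and B lymphocytes and with impaired natural killer cells, and whole marrow cells were collected from each. The treated group was 3 mice that received NOX-A12, an oligonucleotide of mirror-image RNA that binds and neutralises the chemokine CXCL12, and the control group was 3 untreated mice. No label gives the sex, age, dose, schedule or time of collection. RNA of each mouse was read on its own Affymetrix mouse array, and levels are the authors' deposited probe-set intensities.

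The marrow matrix is laid down mainly by stromal, bone-lining and vascular cells. Laminins and nidogens, joined by the heparan sulphate proteoglycan perlecan, form the basement membrane under sinusoids and arterioles, which blood cells cross when they leave the marrow. Fibrillar matrix carries small proteoglycans that space collagen fibrils, elastic fibres assembled by fibulins, and cross-links made by lysyl oxidases, and the stromal cells that make CXCL12 are known as producers of several of these proteins.

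Median intensity was 44.8 to 45.6 on the 6 arrays. The array of untreated mouse 3 stood apart, where 851 probe sets lay over 2-fold away from the other mice's median, and the remaining arrays had 44 to 67 such probe sets, so values without this mouse are given where they bear on a result. The tissue label was checked with marrow markers. All 10 neutrophil and precursor genes and all 7 measured erythroid genes had a mean above 45.3, the median over all probe sets, and their summed intensities overlapped between groups, at 92587 to 94911 in NOX-A12 against 88085 to 95884 in untreated mice for the neutrophil genes. Of the matrix genes, 20 of 29 had a mean above that median. The other 9 (Lama2, Lama4, Lama5, Lamb2, Nid2, Fmod, Fbln2, Sparcl1 and Thbs2) lie lower, where the log2(intensity + 16) scale understates differences.

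More matrix genes were lower than higher in NOX-A12 marrow, and the size of the difference depended on the gene. Of the 29 genes, 21 were lower and 8 higher, with a median log2 change of -0.16 (NOX-A12 minus untreated), against 52.8% of all genes lower and a median of -0.01 over all genes. The lowest values were those of the nidogen Nid1 (-0.67), the adhesive glycoprotein tenascin C, Tnc (-0.65), the elastic fibre organiser Fbln5 (-0.53) and the matricellular protein periostin, Postn (-0.53). The highest were those of fibronectin, Fn1 (0.32), and fibulin-2, Fbln2 (0.27). In whole marrow, fewer cells of a type and less RNA per cell cannot be told apart.

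None of these genes passed the test across the array. With limma and Benjamini-Hochberg adjustment over 45037 probe sets, 0 probe sets passed at an adjusted p under 0.05, 0% of those tested, and the 29 genes had adjusted p values from 0.926 to 0.998. At an unadjusted limma p under 0.05, 8 of the 29 genes (27.6%) were lower, against 3.52% of all genes, and 0 were higher, against 1.78% of all genes. These 8 were Nid1, Nid2, Dcn, Bgn, Fbln5, Lox, Postn and Mmp14. Without untreated mouse 3, 6 of them kept such a p (Nid1, Nid2, Dcn, Bgn, Fbln5 and Lox), against 2.91% of all genes. The count was 5 without NOX-A12 mouse 2, against 2.20% of all genes, where Nid2, Postn and Mmp14 did not keep it. It was 11 without untreated mouse 1, with Lum, Sparc and Tnc added, against 5.51% of all genes. In that fit 2 genes, Fbln2 and Fn1, were higher at that level, and the share of all genes higher was not computed. Leaving out NOX-A12 mouse 1 gave 6 lower genes, without Bgn and Mmp14, against 2.50% of all genes. Leaving out untreated mouse 2 gave 6, without Postn and Mmp14, against 3.31% of all genes. All 3 NOX-A12 mice were below all 3 untreated mice for 8 genes (27.6%), against 6.65% of all genes, and above them for 0, against 3.92% of all genes. The genes were grouped with earlier results of these data known, so these counts describe the set and are not a test of it.

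**Figure D1:**
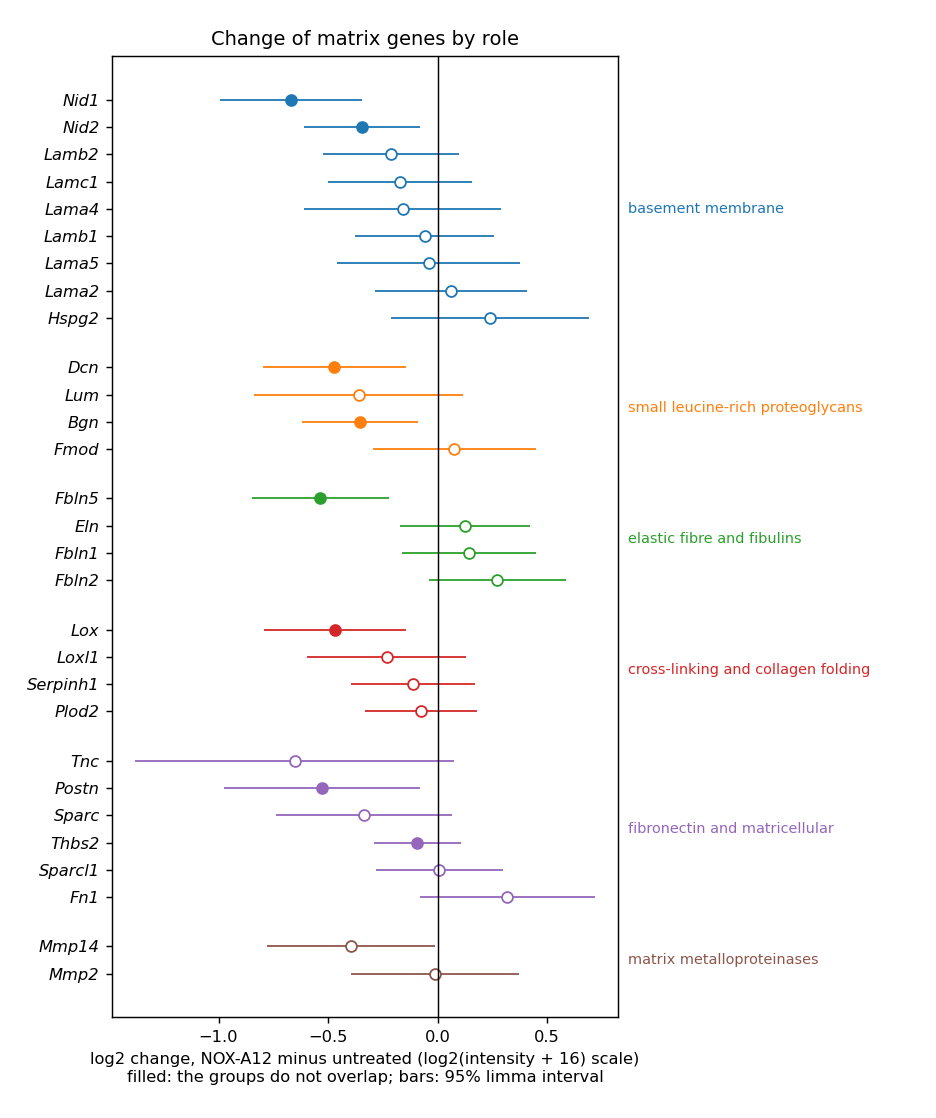
Log2 change of each of the 29 matrix genes on the log2(intensity + 16) scale, NOX-A12 minus untreated, grouped by role, with 95% limma intervals and filled points where the 3 NOX-A12 and 3 untreated mice do not overlap. The intervals of 8 genes lie wholly below 0, and the 8 genes to the right of 0 have intervals that include it.

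Sequence before the transcription start is shown for the genes that were lower at an unadjusted p under 0.05, chosen by that p alone, so that their upstream letters can be compared. RefSeq entries (GRCm38.p6) for 17 of the 29 genes gave 250 bases before the start, and 5 of the 8 are printed here, 5′ to 3′ on the gene's strand. Capitals mark matches, on either strand, to the letters TATAAA of the TATA box, or CCAAT of the CCAAT box, or GGGCGG of the GC box. They also mark the AP-1 motif TGANTCA, the TEAD motif written GGAATG, and the EBF motif, which is given by name.
Nid1, chr13:13437352-13437601, plus strand: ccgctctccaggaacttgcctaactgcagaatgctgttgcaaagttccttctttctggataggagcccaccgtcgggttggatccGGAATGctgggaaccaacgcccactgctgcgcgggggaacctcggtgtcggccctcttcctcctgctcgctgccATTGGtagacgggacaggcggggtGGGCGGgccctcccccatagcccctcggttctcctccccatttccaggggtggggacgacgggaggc
Bgn, chrX:73483351-73483600, plus strand: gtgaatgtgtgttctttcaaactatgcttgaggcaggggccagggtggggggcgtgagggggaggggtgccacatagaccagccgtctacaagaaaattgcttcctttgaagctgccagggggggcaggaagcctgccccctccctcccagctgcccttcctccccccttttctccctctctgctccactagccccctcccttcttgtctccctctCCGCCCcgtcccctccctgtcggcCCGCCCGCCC
Fbln5, chr12:101819120-101819369, minus strand: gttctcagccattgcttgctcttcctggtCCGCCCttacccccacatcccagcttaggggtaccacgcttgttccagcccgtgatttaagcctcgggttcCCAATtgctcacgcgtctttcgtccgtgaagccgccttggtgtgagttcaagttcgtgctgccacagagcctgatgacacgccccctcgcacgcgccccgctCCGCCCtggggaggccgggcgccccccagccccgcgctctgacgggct
Postn, chr3:54359017-54359266, plus strand: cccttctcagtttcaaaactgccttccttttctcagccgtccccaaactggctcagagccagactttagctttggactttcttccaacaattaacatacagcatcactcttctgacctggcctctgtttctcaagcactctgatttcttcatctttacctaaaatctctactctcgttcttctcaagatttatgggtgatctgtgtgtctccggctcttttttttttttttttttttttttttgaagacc
Mmp14, chr14:54431348-54431597, plus strand: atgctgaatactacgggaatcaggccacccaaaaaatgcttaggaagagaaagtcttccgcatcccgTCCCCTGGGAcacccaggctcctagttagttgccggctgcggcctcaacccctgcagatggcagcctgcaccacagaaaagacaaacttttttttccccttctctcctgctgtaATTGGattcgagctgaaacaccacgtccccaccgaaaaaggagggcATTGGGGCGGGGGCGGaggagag
The GC box and the CCAAT box were each in most of the printed windows. The GC box occurred in 4 of the 5, in 10 of the 17 matrix genes (58.8%), and in 42.6% of the windows of 250 bases before protein-coding genes. The CCAAT box occurred in 3 of the 5, in 5 of the 17 (29.4%), and in 35.4% of those windows. Postn held none of the motifs in this window. Fbln5 and Postn each have 2 listed starts, and the window of only 1 of them was searched and printed. TEAD letters stood 165 bases before the start of Nid1, its only printed match, and 11.7% of windows of protein-coding genes hold them. The TATA box was in 0 of the 5, in 2 of the 17 (11.8%) and in 11.6% of windows of protein-coding genes. A CCAAT box stood 91 bases before the start of Nid1 and 150 bases before that of Fbln5, and Mmp14 had 2, the nearer of which shares bases with a GC box. The 2 GC boxes of Bgn next to its start also share bases. The EBF motif was found in Mmp14 alone of the 17 genes, 183 bases before the start, and in 0.832% of windows of protein-coding genes. The AP-1 motif was in 0 of the 17 genes and 6.13% of windows of protein-coding genes. These matches describe letters only.

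In the basement membrane group, both nidogens were lower without overlap, and the groups overlapped for each laminin. The nidogen changes were not tested against those of the laminins. Nid1 encodes nidogen-1, which bridges the laminin and collagen IV networks. It had intensities of 80.6, 101 and 80.7 in NOX-A12 mice 1 to 3, against 131, 139.5 and 176 in untreated mice 1 to 3. Every NOX-A12 mouse was below every untreated mouse, and the log2 change was -0.67 ± 0.14 (SE), with an unadjusted limma p of 0.00169. Nid2, its paralogue, had 30.4, 25.9 and 32.1 in NOX-A12 mice and 36.9, 40.2 and 48.5 in untreated mice. Here too the groups did not overlap, with a log2 change of -0.35 ± 0.11. Without untreated mouse 3, the highest mouse for both, the changes were -0.55 for Nid1 and -0.26 for Nid2.

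No gene of the basement membrane group passed at an adjusted p under 0.05, and Hspg2, which encodes perlecan, had a positive value. Its intensities were 438, 413 and 296 in NOX-A12 mice and 375, 252 and 336 in untreated mice. The groups overlapped, and the log2 change was 0.24 ± 0.19 with a 95% interval from -0.21 to 0.69. It was 0.083 without untreated mouse 2 and 0.13 without NOX-A12 mouse 1. The 6 laminin chain genes overlapped between groups. The chains shared by most laminins, Lamb1 and Lamc1, gave -0.06 ± 0.13 and -0.17 ± 0.14, and Lamc1 gave -0.054 without NOX-A12 mouse 1. Lama4 and Lama5, the alpha chains of vascular basement membrane, gave -0.16 ± 0.19 and -0.04 ± 0.18, and Lama2, best known as the alpha chain of muscle laminin, gave 0.06 ± 0.15. Lamb2 gave -0.21 ± 0.13 at a mean intensity of 11.6 in NOX-A12 and 15.9 in untreated mice. The direction of Lama2, Lama4, Lama5 and Lamb1 turned without untreated mouse 3, to -0.01, 0.02, 0.07 and 0.07. Lama2 also turned without NOX-A12 mouse 1 (-0.05), and Lama5 with either NOX-A12 mouse 2 (0.04) or untreated mouse 1 (0.03) left out. Over all 9 genes the median was -0.16, and -0.01 without untreated mouse 3.

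Of the small leucine-rich proteoglycans, which bind collagen fibrils and regulate their thickness, 3 of 4 were lower. Dcn, encoding decorin, had intensities of 202, 165 and 182 in NOX-A12 mice against 223, 309.5 and 251 in untreated mice. The groups did not overlap, and the log2 change was -0.47 ± 0.14, with an unadjusted limma p of 0.011. Bgn, encoding the related biglycan of bone and vessel matrix, had 451, 473 and 509 in NOX-A12 mice against 578, 572 and 700.5 in untreated mice. It also did not overlap, with -0.35 ± 0.11, and -0.26 without untreated mouse 3, its highest mouse. Lum, encoding lumican, averaged 72.1 ± 15.3 in NOX-A12 and 98.1 ± 25.3 in untreated mice (SD, n = 3 each), a log2 change of -0.36 ± 0.20. The lumican groups overlapped because untreated mouse 1, at 68.9, lay inside the NOX-A12 range, and the change was -0.22 without NOX-A12 mouse 3. Fmod, encoding fibromodulin, was near the low end of the scale at 36.9, 23.9 and 39.4 in NOX-A12 mice and 25.8, 37.7 and 28.5 in untreated mice, and gave 0.08 ± 0.16, or -0.01 without NOX-A12 mouse 3. The median of the group was -0.36, and -0.04 over the next-brightest probe sets of the 3 genes that have one.

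The elastic fibre group held 1 lower gene and 3 with positive values. Fbln5 encodes fibulin-5, which tethers elastin to microfibrils and to integrins on cells. Its intensities were 235, 252 and 308 in NOX-A12 mice and 435, 349 and 386 in untreated mice. The groups did not overlap, and the log2 change was -0.53 ± 0.13, with an unadjusted limma p of 0.00468 and -0.54 without untreated mouse 3. None of the genes of this group, Fbln5 included, passed at an adjusted p under 0.05. Fbln2 had 16.4, 12.4 and 15.2 in NOX-A12 mice against 13.8, 9.03 and 5.86 in untreated mice, a log2 change of 0.27 ± 0.13 at low intensity. Fbln1, encoding fibulin-1 of elastic fibres and basement membranes, gave 0.14 ± 0.13. Eln, which encodes elastin itself, averaged 134 ± 12.7 in NOX-A12 and 122 ± 17.4 in untreated mice (SD, n = 3 each) and gave 0.12 ± 0.13. Without untreated mouse 2, Eln gave 0.017 and Fbln1 0.060, Fbln1 gave 0.050 without NOX-A12 mouse 1, and Fbln2 gave 0.16 without untreated mouse 3. In all 3 of these genes the groups overlapped.

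All 4 measured genes of cross-linking and collagen folding had negative values, and the groups did not overlap for 1 of them, Lox. Lox encodes lysyl oxidase, which starts the covalent cross-links of collagen and elastin. It had 86.9, 67.1 and 102 in NOX-A12 mice and 126, 124 and 119 in untreated mice. The untreated mice lay close together, with an SD of 3.6 against 17.7 in NOX-A12 mice. The log2 change was -0.47 ± 0.14, with an unadjusted limma p of 0.0109. Loxl1, the lysyl oxidase relative needed for elastic fibre upkeep, gave -0.23 ± 0.15, and -0.10 without untreated mouse 3 or -0.12 without NOX-A12 mouse 1. Plod2, which hydroxylates lysines of collagen telopeptides, had 73.6, 74.2 and 78.8 in NOX-A12 mice and 68.9, 89.2 and 84.1 in untreated mice, and gave -0.07 ± 0.11. Serpinh1, encoding the collagen chaperone HSP47, gave -0.11 ± 0.12. Plod2 gave -0.011 without untreated mouse 2, and Serpinh1 gave -0.00047 without NOX-A12 mouse 2. Both overlapped between groups.

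**Figure D2:**
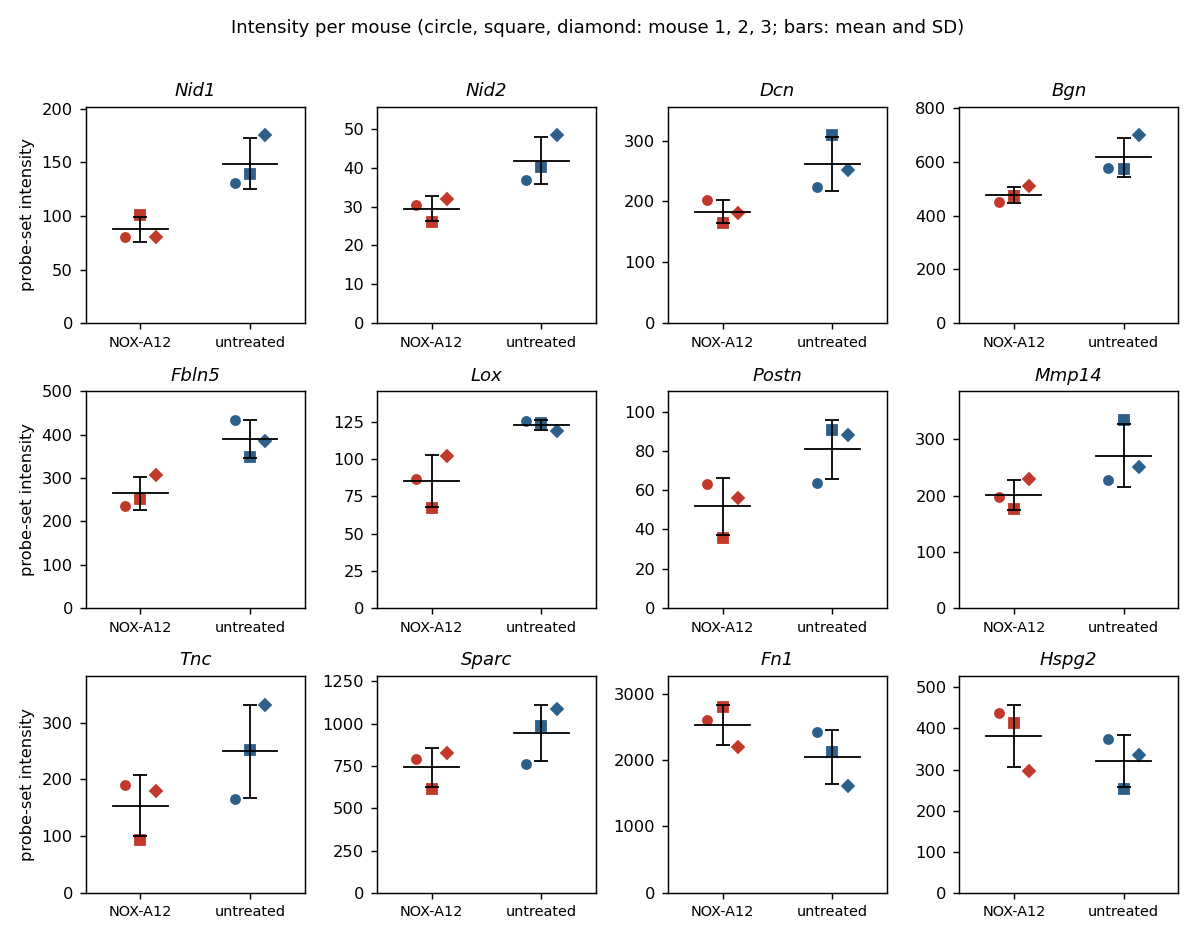
Deposited probe-set intensity per mouse for 12 matrix genes, NOX-A12 mice on the left and untreated mice on the right of each panel, with mean and SD (n = 3 each) and axes from 0. For Nid1, Nid2, Dcn, Bgn, Fbln5, Lox and Postn all NOX-A12 points lie below all untreated points, while those of Mmp14, Tnc, Sparc, Fn1 and Hspg2 overlap.

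Fibronectin and the matricellular proteins, which modulate how cells attach to matrix, differed in direction. Fn1 had intensities of 2606, 2798 and 2204 in NOX-A12 mice and 2422, 2116 and 1607 in untreated mice. It was higher on average, 0.32 ± 0.17 on the log2 scale with a 95% interval from -0.08 to 0.72, but NOX-A12 mouse 3 lay within the untreated range. Its value was 0.16 without untreated mouse 3, the lowest mouse for this gene. A further Fn1 probe set gave 0.33 ± 0.21.

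Postn, encoding periostin of periosteum and stroma, had 63.4, 35.6 and 56.2 in NOX-A12 mice and 63.6, 90.8 and 88.3 in untreated mice. The groups did not overlap, though NOX-A12 mouse 1 and untreated mouse 1 were nearly level, and the log2 change was -0.53 ± 0.19. Tnc, the tenascin of stem cell niches and wounds, had 190.3, 92.2 and 179 in NOX-A12 mice and 166, 252 and 330.4 in untreated mice. Its change of -0.65 ± 0.31 had the widest error of the 29 genes, and untreated mouse 1 lay inside the NOX-A12 range. Sparc, encoding osteonectin, a collagen-binding glycoprotein abundant in bone, had 789, 612 and 829 in NOX-A12 mice and 761, 987 and 1089 in untreated mice. Those groups overlapped too, with -0.34 ± 0.17. Without NOX-A12 mouse 2, the lowest mouse for all 3 genes, the changes were -0.34 for Postn, -0.36 for Tnc and -0.21 for Sparc. For Tnc and Sparc they were -0.90 and -0.48 without untreated mouse 1, and -0.44 and -0.23 without untreated mouse 3, the highest mouse for both.

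Thbs2, encoding thrombospondin-2, an inhibitor of vessel growth, had 21.4, 20.2 and 20.7 in NOX-A12 mice and 23.7, 24.0 and 21.9 in untreated mice. Its groups did not overlap but lay close together, and the change was -0.09 ± 0.08. Sparcl1, encoding the SPARC relative hevin, gave 0.01 ± 0.12, or -0.06 without NOX-A12 mouse 2, at intensities of 15.8 to 24.3 over the 6 mice.

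The 2 matrix metalloproteinases, which work in sequence because the membrane enzyme MMP14 activates MMP2, gave unlike values. Mmp14 had 198, 175 and 229.9 in NOX-A12 mice and 228, 335 and 251 in untreated mice. Only untreated mouse 1 lay inside the NOX-A12 range, and the log2 change was -0.40 ± 0.16, with an unadjusted limma p of 0.0445. The change was -0.24 without untreated mouse 2, and the p was not under 0.05 with untreated mouse 2, untreated mouse 3, NOX-A12 mouse 1 or NOX-A12 mouse 2 left out. Mmp2 had 48.4, 59.9 and 45.7 in NOX-A12 mice and 68.6, 47.4 and 41.5 in untreated mice. Its change was -0.01 ± 0.16, with a 95% interval from -0.39 to 0.37, and leaving out each mouse gave -0.13 to 0.15. The difference between these 2 genes was not tested.

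Other probe sets naming a single gene were listed for 23 of the 29 genes, 37 in all. Of these, 24 had the sign of the probe set described above and 13 the opposite sign. The 5 whose mean was above the median over all probe sets all had the same sign: the 2 others of Bgn (-0.24 ± 0.11 and -0.26 ± 0.13), and 1 each of Sparc (-0.32 ± 0.12), Fn1 (0.33 ± 0.21) and Eln (0.17 ± 0.12). Of the 32 below it, 19 had the same sign. Among those 32 were Dcn at a mean intensity of 3.83 (0.29 ± 0.11) and Fbln5 at 10.7 (0.20 ± 0.14), both opposite to their brighter probe set. Taking the next-brightest probe set of each gene, 1 of 23 genes (4.35%), Sparc, was lower at an unadjusted limma p under 0.05, against 2.96% of all genes so measured, and 1, Dcn, was higher. The share of lower genes at that level was thus near that of all genes in the next-brightest probe sets. Nid2 and Postn have no such probe set. Those of Nid1, Dcn, Fbln5, Lox and Mmp14 had means of 5.58, 3.83, 10.7, 29.6 and 24.1. These means lie under the median over all probe sets, where the scale understates differences, so this count is a weak check of those genes.

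**Figure D3:**
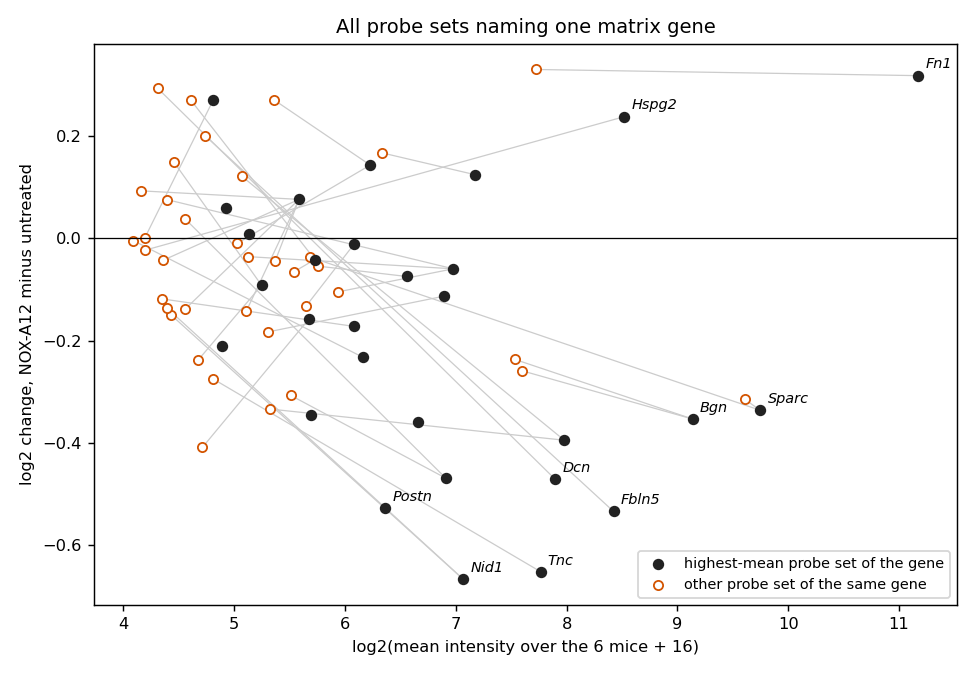
Log2 change (NOX-A12 minus untreated) against log2(mean intensity over the 6 mice + 16) for all probe sets that name one of the matrix genes, with filled points for the highest-mean probe set of a gene, open points for its others and lines joining them. The 5 open points of highest mean intensity lie on the same side of 0 as their filled point, and the 13 of opposite sign have low mean intensity.

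The mice contributed unequally. NOX-A12 mouse 2 was the lowest of the 6 for 12 of the 29 matrix genes, against 16.1% of all genes, and untreated mouse 3 was the highest for 10 of 29, against 28.3% of all genes. Untreated mouse 2 was highest for 8 of 29, against 14.6% of all genes. The mean level of the 29 genes, in log2 units relative to the mean of the 6 mice, was -0.05, -0.17 and -0.04 in NOX-A12 mice 1 to 3 and 0.02, 0.09 and 0.15 in untreated mice 1 to 3, without overlap. Leaving out each mouse in turn gave 19 to 22 lower genes and a median from -0.22 to -0.10.

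Of the marker lists for cells that make matrix, the mesenchymal reticular and endothelial lists had sums that did not overlap between groups, while the osteoblast, adipocyte and smooth muscle and pericyte lists overlapped. Mesenchymal reticular genes were lower in 10 of 10, with changes from -0.65 to -0.019 (median -0.50). Their summed intensity was 7667 to 8504 in NOX-A12 against 9518 to 11058 in untreated mice (9518 and 9980.5 in untreated mice 1 and 2). Of these genes, Pdgfra, a receptor of stromal cells, gave -0.58 ± 0.09. Endothelial genes were lower in 11 of 11, with changes from -0.62 to -0.0053 (median -0.32). They summed to 1082 to 1150 in NOX-A12 against 1304 to 1587 in untreated mice (1304 and 1450 in untreated mice 1 and 2). Of 6 adipocyte genes, 5 were lower, with changes from -0.58 to 0.035 (median -0.51). Their sums were 3182 to 4583 in NOX-A12 and 4175 to 6280 in untreated mice. Osteoblast genes were lower in 3 of 6 (median -0.12), and summed to 303 to 466 in NOX-A12 and 358 to 515 in untreated mice. No gene of these 4 lists passed over all probe sets, and their part in the matrix values was not tested.

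For other cell types the summed intensities overlapped between groups. The 9 skeletal muscle genes, which mark tissue carried over at collection, summed to 406 to 446 in NOX-A12 and 403 to 447 in untreated mice, with a median of -0.02. Smooth muscle and pericyte genes were lower in 2 of 7, with a median of 0.14 and sums of 717 to 985 in NOX-A12 and 741 to 880 in untreated mice. Megakaryocyte genes were lower in 5 of 7 (median -0.11; summed intensity 13133 to 15345 in NOX-A12 and 12410 to 15831 in untreated mice). Macrophage genes were lower in 5 of 7 and higher in 2 (median -0.04), and the lowest was the sialic acid receptor Siglec1 at -0.48 ± 0.12. The mean log2 level of the macrophage genes did not overlap between groups, with sums of 3814 to 4528 in NOX-A12 and 4095 to 4689 in untreated mice. Each array lists 781 to 861 probe sets at exactly 1, near the lowest intensity in the table, 0.66. The contractile gene Cnn1 was at 1 in all 3 NOX-A12 mice and in untreated mouse 3, and Tagln and Mepe were at 1 in untreated mouse 3. No other listed marker was at 1 or below, and the part of these cells in the matrix values was not tested.

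**Figure D4:**
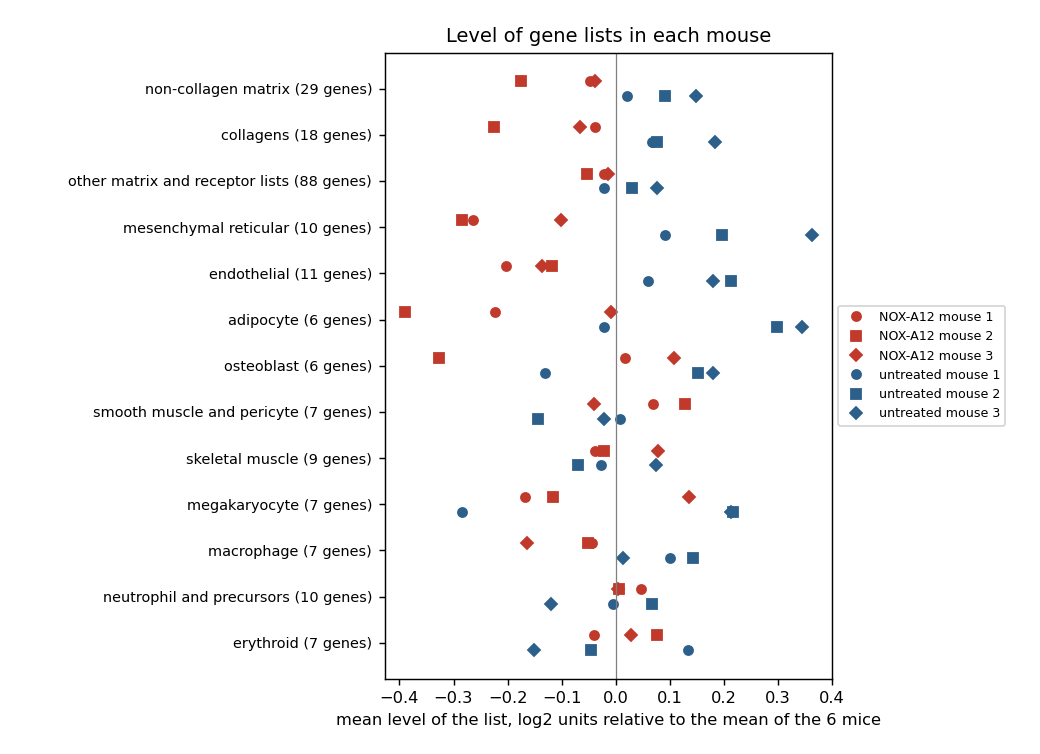
Mean level of the 29 non-collagen matrix genes and of other gene lists in each mouse, in log2 units relative to the mean of the 6 mice, with NOX-A12 mice above untreated mice in each row. The groups do not overlap for the matrix genes, the collagens, and the mesenchymal reticular, endothelial and macrophage lists, and overlap for the other 8 lists.

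The wider matrix was set beside these genes. Of 18 collagen genes, whose products the proteoglycans and cross-linking enzymes act on, 17 were lower and 1 was higher, with a median of -0.22, 3 lower at an unadjusted limma p under 0.05 and 0 past the adjusted threshold. Col3a1, a fibrillar collagen of reticular fibres, gave -0.40 ± 0.08, and Col4a1 of basement membrane gave -0.39 ± 0.12. Of 88 further genes for matrix proteins, their processing and their receptors, 49 were lower and 39 higher, with a median of -0.05. In that set 8 were lower and 2 higher at an unadjusted limma p under 0.05, and 0 passed the adjusted threshold in either direction. Over all genes, 3.52% were lower and 1.78% higher at that unadjusted level.

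By role, the other matrix lists had medians from -0.19 to 0.06. Other basement membrane genes were lower in 6 of 11 (median -0.08), with Ntn4, which encodes netrin-4, at -0.44 ± 0.18. Other small proteoglycans were lower in 6 of 8 (median -0.19), among them osteoglycin, Ogn, at -0.42 ± 0.21. Other elastic fibre genes were lower in 7 of 12 (median -0.05), among them Ltbp2, which binds microfibrils, at -0.61 ± 0.21. Other cross-linking and collagen processing genes were lower in 6 of 12 (median 0.00), with opposite values for Pcolce, an enhancer of procollagen cleavage (-0.42 ± 0.15), and P4ha1, a prolyl hydroxylase subunit (0.42 ± 0.12). Other matricellular genes were lower in 7 of 12 (median -0.07), with Ccn2 and Ccn1, both induced in stromal cells by mechanical tension, at -0.78 ± 0.38 and -0.71 ± 0.32. Other metalloproteinases and their inhibitors were lower in 5 of 13 (median 0.06). Matrix receptors were lower in 12 of 20 (median -0.05), among them the collagen receptor Ddr2 (-0.44 ± 0.11) and the syndecan Sdc1 (-0.42 ± 0.13). None of these medians was tested against that of the 29 genes.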

How the data were processed

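Total RNA of whole bone marrow from 3 NOX-A12 and 3 untreated SCID/Bg mice was labelled with biotin and each sample had its own array, per the labels' protocols. Sample titles give group and mouse number. The values are the authors' deposited intensity per probe set, linear and already summarised. How they were normalized, and with which software, was not given in the sources used here. Array medians on the log2 scale lay within 0.0193, under a limit of 0.1, so no normalization was added.

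Of 45037 probe sets, 34945 name 1 gene, 932 several and 9160 none, per the platform annotation. Log2(intensity + 16) was tested two-sided in limma 3.58.1 (R 4.3.3) by lmFit followed by eBayes. The fit used all 6 arrays without covariates, p was adjusted by Benjamini-Hochberg over all probe sets, and the threshold was 0.05. Errors of log2 changes are SE, and the number of arrays limits precision. Replicate numbers name different mice: deviations of same-numbered mice correlated at -0.09, 0.05 and 0.03, so no block was used. On simulated data, 15.5% of 1.5-fold and 56.8% of 2-fold changes were called among probe sets above the median, with 3.61% of calls false. Each simulated run held 200 changed probe sets, 4-fold changes among them, with residual spreads shuffled over probe sets. Many large changes ease the adjusted threshold, and 0 probe sets passed in the data themselves, so these shares can overstate what could be called here.

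The matrix genes, lists and alternatives were chosen with earlier results of these data known. Values per mouse are printed for the 12 genes with the smallest unadjusted p and for the highest-mean, highest and lowest genes of each role. Thbs2 was added after its values were seen, since its groups do not overlap. Of other lists, the 2 genes with the smallest p could be named. Promoter sequences come from RefSeq. Figures were drawn with matplotlib 3.10.9.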

Additional observations from a re-analysis of the deposited data

How the results depend on the processing

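With 3 mice a group, 1.5-fold differences were mostly out of reach, and at low intensity the offset understates differences. The count of matrix genes past the adjusted threshold was 0 under every alternative run: offsets of 1 and 64, quantile normalization, median centring, a filter on dim probe sets, array weights, trend and robust variances, a replicate block, each mouse left out, other probe sets and an adjusted p under 0.1. With an unadjusted p under 0.05 as the threshold it was 8 of 29 matrix genes, all lower, and 2240 of all 45037 probe sets. Among all genes, 3.52% were lower and 1.78% higher at that level. The replicate block left 21 lower genes and 7 of them with an unadjusted p under 0.05, against 3.25% of all genes. With that block 1 gene, Fn1, was higher at that level, and 0 calls were made over all probe sets. The count of lower genes at an unadjusted p under 0.05 was an alternative series chosen after seeing the data. It was 5 to 11 leaving out each mouse, against 2.20% to 5.51% of all genes. With the second brightest probe set it was 1 of 23, against 2.96%. Nid2 and Postn lack such a probe set, and that of Nid1, Dcn, Fbln5, Lox and Mmp14 is dim. With the mean of probe sets the count was 6 of 29 (20.7%), against 3.34%: Lama4, Nid1, Nid2, Bgn, Postn and Tnc. Dcn, Fbln5, Lox and Mmp14 were not among those 6. Genes higher at that level, 0 in the reported fit, were 2 without untreated mouse 1, and 1 each with the mean and the second brightest of probe sets. The share of all genes higher was computed for the reported fit only.

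The median over the matrix genes was -0.080 with an offset of 64 and -0.28 over the 20 genes kept by the filter on dim probe sets. Leaving out each mouse, the basement membrane median ran from -0.27 to -0.014. The small proteoglycan median was -0.19 with the mean of probe sets and -0.044 with the second brightest, and the matricellular median was -0.43 under the filter. Of the other lists, the basement membrane median was 0.028 with array weights, -0.17 under the filter and -0.11 to 0.047 leaving out each mouse. The small proteoglycan median was -0.42 under the filter, -0.36 with an offset of 1 and 0.0027 with the second brightest probe set. For metalloproteinases and inhibitors it was -0.028 with the mean of probe sets, -0.065 with the second brightest and 0.0037 to 0.072 leaving out each mouse, for matrix receptors -0.0065, 0.069 and -0.068 to -0.0068 in the same settings, and for matricellular genes -0.068 to 0.018 leaving out each mouse.

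The sign held under all alternatives for 19 genes, 15 lower and 4 higher. It turned for Dcn (0.29), Fbln5 (0.20), Hspg2 (-0.023) and Fmod (-0.044) with the second brightest probe set, for Lama5 (0.038), Fmod (-0.025) and Mmp2 (0.0048) with array weights, and for Lama5 (0.055) and Fmod (-0.033) with the mean of probe sets. Leaving out each mouse, Lama2 ran from -0.054 to 0.19, Lama4 from -0.32 to 0.019, Lama5 from -0.22 to 0.074, Lamb1 from -0.15 to 0.072, Fmod from -0.013 to 0.22, Sparcl1 from -0.061 to 0.11 and Mmp2 from -0.13 to 0.15. The cause of these turns was not tested.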
